A study of Sus scrofa with 10 samples.

Results

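One liver library, taken on day 4 of treatment with a cell-filled bioartificial liver, was set against 3 libraries of normal pig liver, gene by gene. The deposited table holds 31905 genes, and the 12180 genes that reached 1 FPKM in 2 or more of its 10 libraries were compared. FPKM is a level of RNA: the fragments of a gene, divided by its length and by the size of the library. The study asked how the liver of pigs with liver failure after hepatectomy, the surgical removal of liver tissue, changes under a device outside the body that passes blood over human induced hepatocytes. Such cells resemble hepatocytes and are obtained by reprogramming other human cells directly. The library described here, hiHepD4, is the only one from day 4 of that device. Normal liver on day 0, called Control, has 3 libraries. The other 6 libraries are 2 from untreated liver failure on day 2 (NoBAL), 2 from liver failure treated on a cell-free device, day 3 (EmptyBAL), and 2 from the cell-filled device on day 8 (hiHepD8). All samples are labelled WT, from Sus scrofa liver. Breed, age, sex, the extent of the hepatectomy and the event from which days are counted were not given in the sources used here, nor whether the Control libraries came from separate animals.

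The liver answers injury and infection with the acute phase response. Cytokines, interleukin 6 foremost, reach hepatocytes through receptors that activate STAT3 and NF-kappaB, and the hepatocytes then secrete large amounts of positive acute phase proteins, such as C-reactive protein, fibrinogen and serum amyloid A, and make less of negative ones, such as albumin and transthyretin. In pigs the inter-alpha-trypsin inhibitor heavy chain ITIH4 is itself a major acute phase protein. After partial hepatectomy the remaining hepatocytes also enter the cell cycle, a response that begins with a brief burst of immediate early genes.

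With a single library at day 4 no test of a condition was possible: 1 library against 3 cannot give a one-sided exact permutation p below 0.25. A gene is therefore said to have risen where hiHepD4 lay above all 3 Control libraries and at least 2-fold from their mean on the log2(FPKM + 1) scale, and to have fallen where it lay below all 3 by the same margin. Day, hepatectomy, device and cells all separate hiHepD4 from Control and cannot be told apart. Log2 changes below are hiHepD4 minus the Control mean on that scale, which understates changes of low genes, while folds are ratios of FPKM to the Control mean. In bulk tissue, fewer cells of a type and less RNA per cell cannot be told apart.

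Of the 12180 genes, 5598 (46%) were above all 3 Control libraries in hiHepD4, 5042 (41.4%) were below all 3 and 1540 (12.6%) lay between them. The 2-fold margin left 994 genes that rose (8.16%) and 1352 that fell (11.1%), and at 4-fold 217 (1.78%) and 335 (2.75%). Counts of rises and falls in the gene lists below are to be read beside the 8.16% and 11.1%. The Control libraries lay close together: the median SD of a gene among them was 0.0893 on the log2 scale, and 127 genes (1.04%) spanned 2-fold or more. The median change of all genes was 0.03, with quartiles at −0.46 and 0.46. Among the 947 genes that reached 100 FPKM in hiHepD4 or in the Control mean, 109 rose and 275 fell. Thus the genes that liver expresses most strongly fell more often than they rose, as the plot of hiHepD4 against Control shows.

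**Figure D1:**
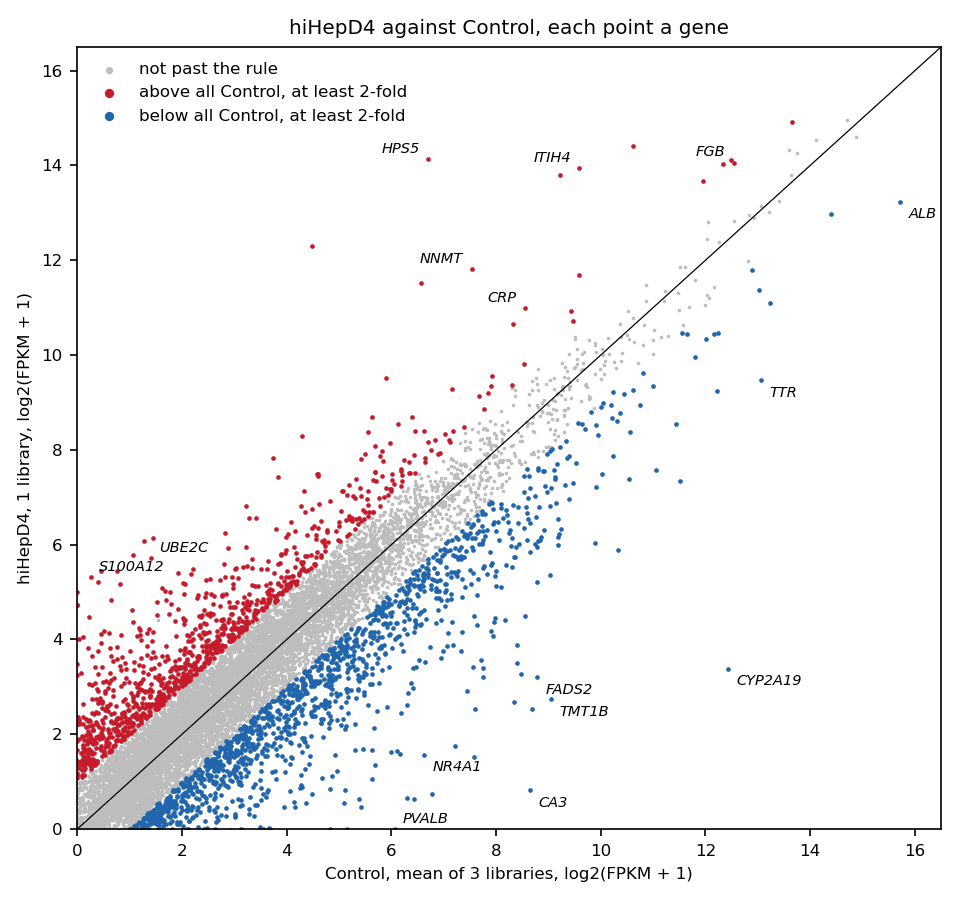
Each point is 1 of the 12180 genes, with the mean of 3 Control libraries on the x axis and the hiHepD4 library on the y axis, both as log2(FPKM + 1); the line marks equal values. The 994 genes that rose are red and the 1352 that fell blue; HPS5 and ITIH4 stand far above the line at high levels, and CYP2A19 and CA3 far below it.

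The deposited FPKM summed to 813633 in hiHepD4 and to between 823762 and 829970 in Control, against 439925 to 791281 in the other 6 libraries. The 10 most abundant genes held 27.8% of the hiHepD4 sum and 25.4% to 26.0% of the Control sums. On log2 values the correlation of hiHepD4 with single libraries, across genes, which are not independent replicates, was 0.90 for each Control library, 0.93 and 0.91 for NoBAL, 0.75 and 0.88 for EmptyBAL and 0.87 for both hiHepD8 libraries. The first EmptyBAL library stood apart from the others in this measure. Cell type is labelled hepatocyte and source liver, and the 8 hepatocyte markers summed to 44495 FPKM in hiHepD4 against 95253 to 98236 in Control. Markers of macrophages, endothelium, stellate cells and lymphocytes were present in all 4 libraries too, so the values are those of liver tissue.

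Among rows with a symbol and at least 10 FPKM, the largest rise was that of the row labelled HPS5, a subunit of a complex that forms lysosome-related organelles. It stood at 102, 107 and 102 FPKM in the Control libraries and at 17898 in hiHepD4, a 173-fold rise that made this single row 2.20% of the library's summed FPKM. The other libraries held 2709 and 579 FPKM (NoBAL), 352 and 436 (EmptyBAL), and 80.0 and 70.1 (hiHepD8), so hiHepD4 was above all 9 and the day 8 libraries were below Control. In the RefSeq annotation of Sscrofa11.1, HPS5 lies on chromosome 2 from 40906785 to 40938847, and the next genes are those of serum amyloid A: the pseudogene SAA1P, then SAA2 from 40972797 to 40976222, SAA4, LOC102165880 and SAA3 from 41021349 to 41025950. No SAA gene has a row under its own symbol among the 31905. Whether the reads of this row came from HPS5 or from its neighbours was not tested, and the row is called HPS5 here only by its label. A row without a symbol, ENSSSCG00000013369, rose more, 237-fold, from 19.6, 22.6 and 22.1 FPKM in Control to 5069.9 in hiHepD4, also its highest of the 10 libraries.

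Of 40 positive acute phase genes listed, 27 had a row, all of which passed the filter on low values. Of these 12 rose (44.4%, beside 8.16% of all genes) and 2 fell. The median log2 change was 0.39, beside 0.03 over all genes. Of the 12, 10 stood at their highest of all 10 libraries in hiHepD4. The comparison and the list were chosen with earlier results of these data known, so these counts only describe this library. Haptoglobin (HP), ORM1, FGA, LRG1, IL1RN, SERPINA3, SERPINA3-8, SAA1 to SAA4, REG3G and MT2A had no row under these symbols.

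ITIH4, the heavy chain known in pigs as a major acute phase protein, had 766, 772 and 768 FPKM in Control and 15790.3 in hiHepD4, a 20.5-fold rise. The first NoBAL library came closest with 8356 FPKM, whereas EmptyBAL (177 and 225) and hiHepD8 (424 and 429) were below Control. ITIH4 lies on chromosome 13, from 34928455 to 34948250 (Sscrofa11.1). C-reactive protein (CRP), a pentraxin that marks microbes and dead cells for complement, had 372, 387 and 368 FPKM in Control and 2044 in hiHepD4, 5.44-fold more. Its relative serum amyloid P (APCS) stood at 95.5, 102 and 95.7 in Control and at 335 in hiHepD4. For the third pentraxin, PTX3, the values were low throughout, at 0.612 to 0.669 FPKM in Control and 1.16 in hiHepD4, and it did not pass the 2-fold margin.

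Fibrinogen, the precursor of fibrin, rose in both chains measured. The beta chain FGB had 6022, 5880.2 and 5951 FPKM in Control and 17066 in hiHepD4 (2.87-fold). The gamma chain FGG had 5184, 5081 and 5231 in Control and 16849.7 in hiHepD4 (3.26-fold), so the chains rose by like amounts from like levels. The first NoBAL library held 9495 and 7908 FPKM of these genes, more than Control and less than hiHepD4. In both hiHepD8 libraries they were below Control, at 2748 and 2749 FPKM of FGB and 2218 and 2183 of FGG.

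Protease inhibitors made up another group of rises. SERPINA3-2, a member of the antichymotrypsin family, reached 31135 FPKM from 12463, 12843 and 13609.7 in Control. Alpha-2-macroglobulin (A2M), which traps proteases of many classes, had 779, 752 and 763 FPKM in Control and 3325 in hiHepD4, a 4.35-fold rise. TIMP1, an inhibitor of matrix metalloproteinases, had 23.5 to 23.7 FPKM in Control and 114 in hiHepD4, with still higher values in NoBAL (421 and 121) and EmptyBAL (2706 and 351). SERPINA1, alpha-1-antitrypsin, did not pass the margin: its 1591 FPKM in hiHepD4 lay just below the 1778 to 1846 of Control.

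LBP, LCN2 and S100A8 also rose. LBP, which hands lipopolysaccharide to its receptor, had 91.0, 84.2 and 85.3 FPKM in Control and 334 in hiHepD4. LCN2, lipocalin 2, which binds bacterial iron carriers, had 0.683 to 0.723 FPKM in Control and 42.5 in hiHepD4, 60.8-fold more and above the 9.13 to 20.3 FPKM of NoBAL and EmptyBAL. S100A8, a subunit of calprotectin, was listed at 0 in all 3 Control libraries and at 25.4 FPKM in hiHepD4; it is also a neutrophil marker, described with that list below. CD14, the co-receptor for lipopolysaccharide, had 843 FPKM in hiHepD4 and 680.0 to 752 in Control, above all 3 but within 2-fold.

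The rest of the list did not rise. Ceruloplasmin (CP), the copper-carrying ferroxidase, had 698 FPKM in hiHepD4 against 403 to 413 in Control, the highest of the 10 libraries but under the 2-fold margin. Hemopexin (HPX), which binds free heme, fell 2.16-fold, from 7332, 7644 and 7874 FPKM to 3528, and C4BPA, a chain of the complement regulator C4b-binding protein, fell 2.20-fold to 91.4 FPKM. Below all Control libraries but within 2-fold were ITIH3 (624 FPKM in hiHepD4), C3 (2542), CFB (887), PLG (1279), SERPING1 (1328), C4BPB (111), F8 (1.42), MT1A (1178) and HAMP. HAMP, the gene of the iron hormone hepcidin, had 44.6, 37.8 and 38.3 FPKM in Control and 25.5 in hiHepD4, while both NoBAL libraries (474 and 155) and the second EmptyBAL library (328) held more. The acute phase list thus did not move as one: fibrinogen, CRP and ITIH4 were at their peak of the 10 libraries while hepcidin was below Control.

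**Figure D2:**
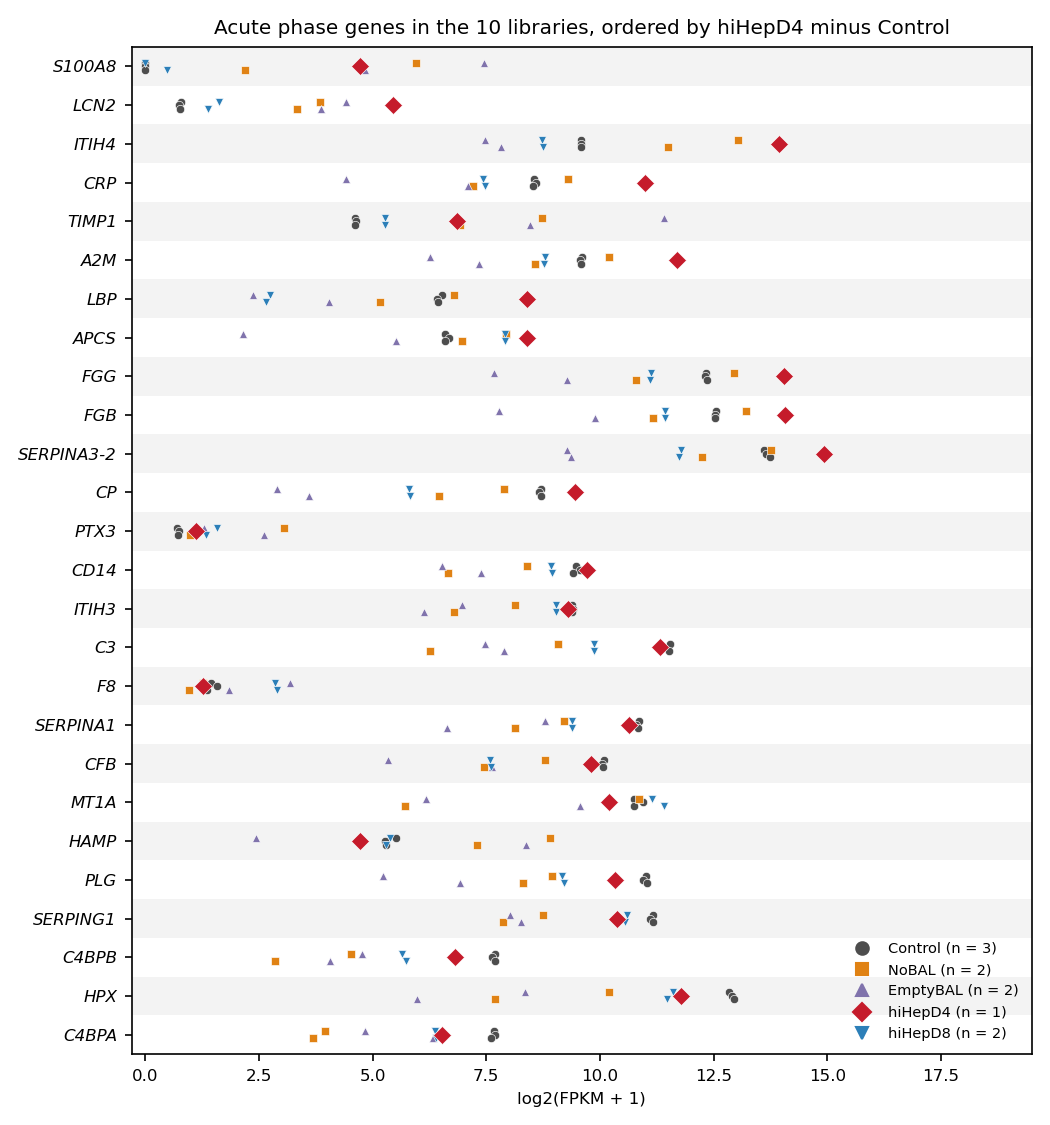
Of the 27 measured genes of the positive acute phase list, 26 are shown, ordered by hiHepD4 minus Control, with log2(FPKM + 1) on the x axis and each of the 10 libraries as a symbol by group (Control n = 3, NoBAL, EmptyBAL and hiHepD8 n = 2 each, hiHepD4 n = 1). The red diamond of hiHepD4 is the rightmost symbol in 9 of the 11 shown genes that rose, with S100A8 and TIMP1 the exceptions.

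The negative acute phase genes moved the other way. Of 17 listed, 16 were measured; 10 fell (62.5%, beside 11.1% of all genes), none rose, and the median log2 change was −1.76. IGFALS, the subunit that keeps insulin-like growth factors in the circulation, had 193, 198 and 187 FPKM in Control and 4.79 in hiHepD4. SERPINA6, the corticosteroid carrier of plasma, went from 216, 222 and 209 to 8.21 FPKM, and HRG, histidine-rich glycoprotein, from 2971, 2773 and 3058 to 162. Transthyretin (TTR), which carries thyroid hormone and retinol-binding protein, had 8112, 9062 and 8649 FPKM in Control and 711 in hiHepD4. All 4 had still lower values in NoBAL, EmptyBAL and hiHepD8. Albumin (ALB) fell 5.58-fold, from 55098, 52275 and 54412 FPKM to 9660.3, and its share of the summed FPKM from between 6.35% and 6.64% to 1.19%. Transferrin (TF), the iron carrier of plasma, had 9798, 9365 and 9714 FPKM in Control and 2183 in hiHepD4.

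No measured gene of interleukin 6 and STAT3 signalling, a list that also holds feedback inhibitors, rose. Of 25 listed, 22 were measured and 6 fell, with a median log2 change of 0.01. CISH, a feedback inhibitor of STAT signalling, had 121, 135 and 124 FPKM in Control and 12.5 in hiHepD4, and JUNB, an AP-1 subunit, went from 608, 705 and 599 to 152. MYC fell 3.12-fold, to 126 FPKM from 391, 391 and 395, and the interleukin 6 family cytokine IL11 fell to 0.604 FPKM from 1.76 to 3.37, within 2-fold of the nearest Control library on the log2 scale. The remaining 2, the cytokine LIF (0.286 FPKM in hiHepD4) and the receptor IL6R (11.3), were named after their values were seen, as were STAT3 and SOCS3. STAT3 itself had 131 FPKM in hiHepD4 and 86.3 to 87.4 in Control, its highest of the 10 libraries but under 2-fold. SOCS3, the feedback inhibitor that STAT3 induces, had 136 FPKM against 232 to 253 in Control and did not pass the margin.

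The NF-kappaB and interleukin 1 list had 21 measured of 24 members, of which 2 rose (9.52%, near the 8.16% of all genes) and 4 fell (19%, beside 11.1%). The 4 are feedback inhibitors or inhibitor-like proteins of NF-kappaB. TNFAIP3 had 49.2, 51.5 and 49.5 FPKM in Control and 3.38 in hiHepD4, and NFKBIA had 399, 417 and 392 and then 56.3. NFKBIE (5.66 FPKM in hiHepD4) and NFKBIZ (13.3) fell 3.10-fold and 2.42-fold. The genes that rose, the adaptor MYD88 (12.8 FPKM from a Control mean of 5.29) and the decoy receptor IL1R2 (1.68 from 0.252), were named after their values were seen.

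Of 29 chemokines and cytokines listed, 24 were measured, 2 rose and 10 fell (41.7%), with a median log2 change of −0.79. The neutrophil attractant CXCL2 had 272, 303 and 284 FPKM in Control and 20.3 in hiHepD4. The monocyte attractant CCL2 had 250.2, 269 and 245 in Control and 33.8 in hiHepD4, CCL3L1 went from 13.3 to 19.9 FPKM in Control to 0.382, and CSF1, the growth factor of macrophages, fell 5.16-fold to 14.0. The 2 that rose, CXCL14 (38.4 FPKM, Control mean 7.39) and CCL14 (10.7, Control mean 4.54), were named after their values were seen.

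Immediate early genes had the highest share of falls of any list of more than 10 measured genes: of 26 measured of 29, 20 fell (76.9%), none rose, and the median log2 change was −1.69. NR4A1, an orphan nuclear receptor induced within minutes of a stimulus, had 98.4, 98.4 and 96.9 FPKM in Control and 1.98 in hiHepD4, the lowest of the 10 libraries. FOSB had 336, 337 and 338 FPKM in Control and 13.7 in hiHepD4, and its relative FOS had 438, 458 and 443 and then 66.5. ZFP36, which destabilises cytokine transcripts, went from 1454, 1552 and 1473 to 165 FPKM. In the NoBAL, EmptyBAL and hiHepD8 libraries these 4 genes were below Control too.

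Interferon-stimulated genes rose in 8 of 26 measured (30.8%, of 29 listed), and 1 fell. ISG20, an exonuclease, had 1.39, 0.355 and 0.770 FPKM in Control and 16.2 in hiHepD4. ISG15, a ubiquitin-like modifier, had 80.6, 77.2 and 66.4 in Control and 219 in hiHepD4, and IFI44 rose 3.32-fold to 22.3. The gene that fell was IRF1, a transcription factor of the pathway, from 91.3, 97.0 and 84.4 FPKM to 10.8.

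Several of the largest rises lay outside these lists. CCL11, eotaxin, which attracts eosinophils, had 0.205, 0.0754 and 0.788 FPKM in Control and 36.3 in hiHepD4, with 5.54 the most in any other library. Its gene is on chromosome 12, from 40779906 to 40782862. CBR2, a carbonyl reductase, had 0.533, 1.55 and 1.32 in Control and 54.2 in hiHepD4. SFI1, a protein of the centrosome, had 1.4 to 2.33 FPKM in Control and 69.5 in hiHepD4, 39.5-fold more.

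NNMT, which methylates nicotinamide, had 187, 192 and 174 FPKM in Control and 3580.2 in hiHepD4, a 19.4-fold rise at a high level. The first NoBAL library held 1233 FPKM, but the second held 56.4 and the EmptyBAL libraries 39.2 and 32.2. ISYNA1, which makes inositol phosphate from glucose 6-phosphate, had 12.7, 13 and 11.6 in Control and 226 in hiHepD4. MIOX, which breaks inositol down, moved the other way, from 103, 113 and 108 FPKM to 0.671. EPO, erythropoietin, was listed at 0.0747, 0 and 0 FPKM in Control and reached 15.2 in hiHepD4, above the 3.59 of the next library, the first of NoBAL. EPO lies on chromosome 3, from 8620508 to 8622936.

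S100A2, a calcium-binding protein of epithelia, had 0.263 to 0.509 FPKM in Control and 42.7 in hiHepD4, with more in both NoBAL libraries (141 and 100.3). U1, the RNA of the spliceosome, was listed at 0 in Control and at 25.4 FPKM in hiHepD4. It comes from many near-identical copies and is short, so its row is uncertain. A second row without a symbol, ENSSSCG00000032047, was listed at 0 in the Control, NoBAL and EmptyBAL libraries, at 31.2 FPKM in hiHepD4 and at 24.0 and 151 in hiHepD8.

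**Figure D3:**
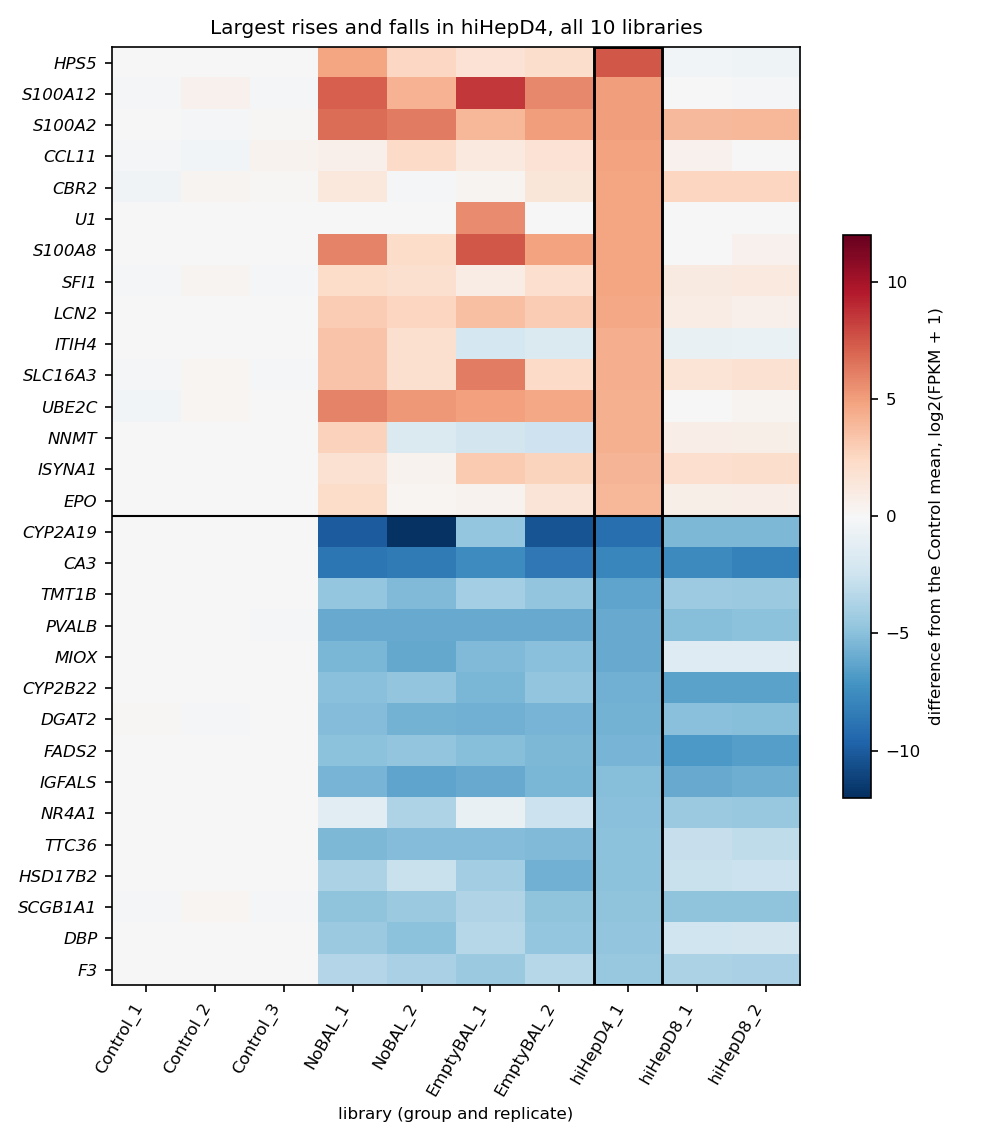
Colour gives each library's difference from the Control mean on the log2(FPKM + 1) scale for the 15 largest rises (upper block) and 15 largest falls (lower block) of hiHepD4, which is boxed. NNMT, CCL11 and SFI1 are pale or blue in most other groups and red in hiHepD4, while the falls are blue in NoBAL, EmptyBAL and hiHepD4 alike, palest for NR4A1.

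Enzymes of liver metabolism led the falls. CYP2A19, a cytochrome P450 of xenobiotic oxidation, had 5609, 5582 and 5439.8 FPKM in Control and 9.45 in hiHepD4, a 586-fold fall, and it lies on chromosome 6 from 49056579 to 49064111. NoBAL libraries held even less of it (4.52 and 0.521 FPKM), and hiHepD8 more (127 and 133). CA3, carbonic anhydrase 3, had 399, 402 and 394 FPKM in Control and 0.765 in hiHepD4, and at most 1.15 in the 6 libraries of the other groups. TMT1B, a thiol methyltransferase, fell from 521, 549.9 and 514 to 5.65 FPKM, the lowest of the 10 libraries.

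Of the lipid enzymes among these, DGAT2, which makes triglyceride, had 84.9, 72.1 and 77.3 FPKM in Control and 0.579 in hiHepD4, and the desaturase FADS2 had 443, 445 and 431 and then 8.21. HSD17B2, which inactivates sex steroids, went from 337, 333 and 343 to 10.3 FPKM. F3, tissue factor, which starts coagulation, had 69.8, 69.4 and 72.9 FPKM in Control and 2.02 in hiHepD4, the lowest of the 10 libraries. PVALB, parvalbumin, and SCGB1A1, uteroglobin, had 61.3 to 69.1 and 24.9 to 32.2 FPKM in Control and were listed at 0 in hiHepD4. TTC36 fell to 0.383 FPKM from 41.2, 43.6 and 41.2. Rows without a symbol fell too: ENSSSCG00000035706 went from 405, 417 and 414 FPKM to 4.78, and ENSSSCG00000034735 from 198, 182 and 191 to 1.87.

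Cytochrome P450 genes fell in 11 of 19 measured (57.9%, of 30 listed), with a median log2 change of −1.06. CYP2B22 had 84.7, 90.6 and 81.4 FPKM in Control and 0.544 in hiHepD4. CYP26A1, which degrades retinoic acid, went from 9.64, 11 and 10.1 to 0.0372 FPKM, the lowest of the 10 libraries, and CYP4V2, a fatty acid hydroxylase, from 49.9 to 53.7 FPKM to 4.61. The 2 that rose, named after their values were seen, were CYP1B1 (2.12 FPKM, Control mean 0.195) and CYP2R1 (5.22, Control mean 2.00). Paralogous P450 genes share sequence, and the sources used here do not say how shared reads were assigned.

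Conjugating and related enzymes fell in 14 of 28 measured (50%, of 41 listed), and 1 rose. XDH, xanthine dehydrogenase, had 122, 126 and 119 FPKM in Control and 11.3 in hiHepD4, and MGST3, a microsomal glutathione transferase, 197, 195 and 176 and then 21.4. FMO5, a flavin monooxygenase, fell 7.23-fold. The one that rose, named after its values were seen, was the sulfotransferase SULT1A3 (241 FPKM, Control mean 44.2).

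Amino acid breakdown fell in 24 of 43 measured genes (55.8%, of 45 listed), with a median log2 change of −1.16. SARDH, sarcosine dehydrogenase, had 212, 221 and 195 FPKM in Control and 10.9 in hiHepD4, and choline dehydrogenase, CHDH, had 34.4 to 36.6 and then 4.48. Histidine breakdown split: HAL, its first enzyme, rose 8.45-fold from 47.4, 54.0 and 44.4 FPKM to 410.3, the highest of the 10 libraries, while UROC1, the next enzyme, fell 8.15-fold from 269.8, 282 and 261 to 33.3. The other gene that rose, TAT, tyrosine aminotransferase, was named after its values were seen and had 753 FPKM against a Control mean of 242. Of 16 urea cycle and glutamine genes, all measured, 5 fell and none rose. OTC, ornithine transcarbamylase, had 334, 328 and 334 FPKM in Control and 60.9 in hiHepD4, OAT had 122 to 123 and 27.7, and ASS1, which makes argininosuccinate, had 4499, 4800.2 and 4502 and then 1399. GLUL, glutamine synthetase, fell 2.87-fold to 78.3 FPKM, and NAGS, named after its values were seen, to 61.2 from a Control mean of 161.

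Glucose metabolism shifted in parts. In the gluconeogenesis and glycogen list, 22 of 24 were measured, with a median log2 change of −0.73. Of these 7 fell (31.8%, beside 11.1% of all genes) and 2 rose (9.09%, near 8.16%). PPP1R3C, a glycogen-targeting phosphatase subunit, had 84.7, 84.7 and 82.0 FPKM in Control and 6.92 in hiHepD4. LPIN1, a phosphatidate phosphatase, fell from 33.4, 36.6 and 32.8 to 3.53, and FBP1, fructose bisphosphatase, from 570.2, 564 and 568 to 117. The genes that rose, named after their values were seen, were TAT and G6PC1, glucose 6-phosphatase (284 FPKM, Control mean 61.9).

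Genes of glycolysis and the hypoxia response rose in 13 of 31 measured (41.9%, of 34 listed) and fell in 3, with a median log2 change of 0.86. SLC16A3, a lactate exporter, had 0.616, 1.06 and 0.650 FPKM in Control and 35.0 in hiHepD4. LDHA, lactate dehydrogenase A, had 46.2, 46.9 and 44.0 in Control and 330.1 in hiHepD4, the highest of the 10 libraries. ALDOA, the aldolase of muscle and of fetal liver, rose 8.23-fold to 14.6 FPKM, and EGLN3, an oxygen-sensing prolyl hydroxylase, 5.11-fold to 11.6. The genes that fell included, named after their values were seen, the adult liver isoform PKLR (7.70 FPKM, Control mean 28.0) and VEGFA (73.9, Control mean 168).

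Fatty acid oxidation fell in 8 of 31 measured genes (25.8%, of 34 listed) and rose in 1, CREB3L3, named after its values were seen (321 FPKM, Control mean 129). PPARA, the receptor that drives this programme, had 20.0, 19.3 and 19.9 FPKM in Control and 0.473 in hiHepD4. ACAA2, a thiolase of mitochondria, fell 6.64-fold to 70.1 FPKM, BDH1, of ketone body synthesis, 4.17-fold to 31.0, and ACSL1 3.30-fold to 129.6.

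In the lipid synthesis and storage list, 34 of 37 were measured, 14 fell and 6 rose, with a median log2 change of −0.75. Of 5 perilipins measured, which coat lipid droplets, 2 rose: PLIN2 had 24.5, 22.6 and 22.0 FPKM in Control and 179 in hiHepD4, and PLIN5 had 85.0, 81.5 and 82.4 and then 413. PLIN2 was higher still in NoBAL (724 and 751), PLIN5 was not (99.9 and 18.8), and both were below Control in hiHepD8. PLIN1, PLIN3 and PLIN4, named after their values were seen, lay below all Control libraries but within 2-fold on the log2(FPKM + 1) scale, with changes of −0.45, −0.11 and −0.76. Cholesterol genes, all 27 measured, had 4 that rose (14.8%, beside 8.16% of all genes) and 5 that fell (18.5%, beside 11.1%). FDPS, farnesyl diphosphate synthase, had 49.7, 50.7 and 51.3 FPKM in Control and 185 in hiHepD4, and HMGCS1, at the start of the pathway, had 13.5, 13.3 and 12.7 and then 47.6. TM7SF2, a reductase near its end, fell 3.84-fold, to 100.3 FPKM. Named after their values were seen, SQLE (39.3 FPKM) and ACAT2 (55.8) also rose, and PMVK (4.66) and INSIG1 (187) fell.

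Bile acid synthesis fell in 6 of 14 measured genes (42.9%, of 19 listed), and 1 rose. CYP7A1, its rate-limiting enzyme, had 33.7, 32.3 and 34.1 FPKM in Control and 0.458 in hiHepD4, 72.9-fold less. SLC27A5, which activates bile acids for conjugation, had 1295, 1325 and 1227 and then 57.8, FGFR4, the receptor through which the gut hormone FGF19 restrains synthesis, fell to 6.46 from 34.3 to 34.5, and CYP27A1 fell 3.48-fold to 211. The one that rose was HSD3B7, named after its values were seen (256 FPKM, Control mean 107). Of 16 measured transporters of bile acids and organic ions (of 20 listed), 6 fell (37.5%, beside 11.1% of all genes) and 2 rose (12.5%, beside 8.16%). The carriers SLC22A9 and SLC10A1 fell 7.19-fold and 4.35-fold, to 6.09 and 15.7 FPKM. ABCC6, an efflux pump, went from 123, 124 and 119.8 FPKM to 20.2. The transporters that rose, SLC51A (2.86 FPKM, Control mean 0.0843) and SLC51B (3.25, Control mean 0.532), are the subunits of the basolateral bile acid exporter and were named after their values were seen.

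Among other plasma proteins, falls outnumbered rises in the complement, coagulation and apolipoprotein lists, but most members passed neither margin. Of 26 measured complement genes (of 32 listed), 12 fell (46.2%) and none rose. MBL2, mannose-binding lectin, had 162, 182 and 177 FPKM in Control and 6.56 in hiHepD4, and its protease MASP1 had 19.9 to 21.7 and then 4.56. CFD, complement factor D, was at its lowest of the 10 libraries, 7.66 FPKM against 36.9 to 43.5 in Control, and C8B fell 3.61-fold to 146. In coagulation, 22 of 25 were measured, 7 fell and 3 rose, the 3 being FGB, FGG and A2M of the acute phase list. Beside F3, the kallikrein KLKB1 had 85.8, 86.9 and 88.4 FPKM in Control and 18.1 in hiHepD4, and PROC, the anticoagulant protein C, had 1763, 1699 and 1706 and then 495. Of 23 measured apolipoprotein and lipoprotein genes (of 29 listed), 9 fell and none rose. ANGPTL8, which takes part in inhibiting lipoprotein lipase, went from 11.7 to 16.8 FPKM to 0.391. APOF fell 8.16-fold to 71.1, and PLTP, which transfers phospholipids, 4.23-fold to 9.34. APOA1, named after its values were seen, had 9072 FPKM in hiHepD4 and 8413 to 8632 in Control.

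Iron and heme genes went both ways. Of 24 measured (of 26 listed), 4 rose (16.7%, beside 8.16% of all genes) and 6 fell (25%, beside 11.1%). HMOX1, heme oxygenase 1, which breaks heme down, had 58.3, 57.4 and 60 FPKM in Control and 736 in hiHepD4, second to 879.9 in the first EmptyBAL library. ALAS1, which starts heme synthesis, had 666, 674 and 664 and then 124, and BMP2, which induces hepcidin, had 17.2 to 18.9 and then 0.821, the lowest of the 10 libraries. Named after their values were seen, the iron transporters SLC39A14 (176 FPKM) and SLC11A2 (18.8) and the iron-responsive ACO1 (179) also rose.

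Of 21 measured genes of metallothioneins and oxidative defence (of 26 listed), 8 rose and 3 fell. SOD2, the mitochondrial superoxide dismutase, had 140.4, 148 and 136 FPKM in Control and 627 in hiHepD4, the highest of the 10 libraries, and the peroxiredoxin PRDX1 had 40.8 to 43.6 and then 224. Catalase (CAT) fell 11.2-fold, from 2143, 2124 and 2130.0 FPKM to 190.2. The others that fell, MT3 (1.01 FPKM) and SOD1 (42.2), were named after their values were seen.

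Secreted proteins are folded in the endoplasmic reticulum. Of 27 measured genes of its stress response (of 29 listed), 12 rose (44.4%) and 2 fell, with a median log2 change of 0.95. CRELD2 and MANF, both secreted under such stress, had 15.9, 17.9 and 14.1 and 54.2, 52.1 and 55.5 FPKM in Control and 88.7 and 233 in hiHepD4. The chaperone DNAJB11 rose 3.46-fold to 20.1. The members that fell were the transcription factors ATF3, from 202, 200.2 and 199 FPKM to 37.6, and DDIT3, named after its values were seen, to 39.0 from a Control mean of 103. Of 42 measured genes of the secretory machinery (of 43 listed), 8 rose and none fell, but 36 lay above all 3 Control libraries (85.7%, beside 46% of all genes), with a median log2 change of 0.69. The translocon components SSR4, SEC61B and SSR1 rose 2.69-fold, 2.44-fold and 2.37-fold, and the vesicle coat subunit SEC23B 2.54-fold to 36.8 FPKM. SYVN1, the ligase that discards misfolded proteins from this compartment, was at its lowest of the 10 libraries: 35.1 FPKM against 125, 134 and 136 in Control.

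Cell cycle genes had the highest median change of all lists of more than 10 measured genes, 2.21 on the log2 scale. Of 38 measured (of 43 listed), 28 rose (73.7%) and none fell. UBE2C, of the ubiquitin system that ends mitosis, had 1.10, 2.19 and 1.83 FPKM in Control and 51.8 in hiHepD4. The cyclin CCNB1 had 0.338, 0.382 and 0.391 and then 16.4, its kinase CDK1 was at 0.461, 0 and 0.0319 and then 13.1, and CDC20 rose 22.2-fold to 23.8. NoBAL held more of all 4 genes, for UBE2C 163 and 98.4 FPKM, and in hiHepD8 they were near or below Control, at 1.59 and 2.44 FPKM of UBE2C. hiHepD4 thus lay between these groups. Among 19 measured growth arrest and p53 genes (of 25 listed), 1 rose (5.26%, beside 8.16% of all genes) and 4 fell (21.1%, beside 11.1%). GADD45B had 234, 270.1 and 242 FPKM in Control and 19.6 in hiHepD4, GADD45G fell 9.38-fold and GADD45A 5.93-fold, to 62.3 and 12.4, and TP53INP1, named after its values were seen, fell to 33.2 FPKM. CDKN2C, an inhibitor of CDK4 and CDK6, rose from 1.56 to 2.01 FPKM to 11.4. In ribosome biogenesis, 23 of 25 were measured: NPM3, GAR1 and BOP1 rose, to 13.5, 6.55 and 32.5 FPKM, and MYC fell. On the log2(FPKM + 1) scale GAR1 and BOP1 were within 2-fold of the nearest Control library, and GAR1 missed the margin (0.997) without Control replicate 1.

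Growth factors and receptors fell in 9 of 27 measured (33.3%, of 30 listed) and rose in 3 (11.1%, beside 8.16% of all genes). EREG and HBEGF, ligands of the epidermal growth factor receptor, had 12.4 to 13.4 and 10.5 to 11.5 FPKM in Control and 1.94 and 1.91 in hiHepD4. INHBA, an activin subunit, fell 4.85-fold to 3.16. The 3 that rose, named after their values were seen, were FST, which binds activin (41.3 FPKM, Control mean 12.7), IGFBP4 (288, Control mean 103) and INHBB (6.20, Control mean 2.04).

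Of 26 measured hepatocyte transcription factors (of 27 listed), 2 rose (7.69%, near the 8.16% of all genes) and 5 fell (19.2%, beside 11.1%). Besides PPARA, FOXA2 went from 45.7, 37.2 and 45.1 FPKM to 12.9. NR1I2 (23.1 FPKM) and NR1I3 (23.6), receptors for xenobiotics, fell too, and CREB3L3 rose; these, with HNF4A, were named after their values were seen. TBX3 rose 3.44-fold to 9.26. HNF4A, the central hepatocyte factor, had 121 FPKM in hiHepD4 and 105 to 112 in Control.

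Of 22 genes of fetal liver and progenitors, 12 were measured. Of these 6 rose (50%, beside 8.16% of all genes) and 2 fell (16.7%, beside 11.1%). The rises include KRT8 and KRT18, also counted in the cytoskeletal list, and ALDOA and PKM, also counted in the glycolysis list. PKM, named after its values were seen, had 39.0 FPKM against a Control mean of 15.5. The share of rises therefore does not describe genes of fetal liver alone. IGF2BP3, an RNA-binding protein of fetal tissue, had 0.150 to 0.312 FPKM in Control and 2.70 in hiHepD4, a low level. DLK1 and GPC3 fell, from 2.76 to 3.86 and 171 to 175 FPKM to 0.314 and 69.1.

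Clock genes fell in 8 of 18 measured (44.4%, of 20 listed) and rose in 2 (11.1%, beside 8.16% of all genes). DBP, an output factor of the clock, had 42.4, 40.2 and 39.2 FPKM in Control and 0.562 in hiHepD4, and PER2, a repressor, had 26.6, 29.9 and 26.3 and then 0.802. TEF and BHLHE40 fell 8.04-fold and 6.0-fold, to 3.36 and 42.6. The 2 that rose, ARNTL (5.19 FPKM, Control mean 1.69) and NPAS2 (4.43, Control mean 0.858), are the activating factors and were named after their values were seen. The sources used here do not give the hour of sampling.

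Genes with zones in the liver lobule gave no common direction. Of 20 measured (of 23 listed), 3 rose (15%, beside 8.16% of all genes) and 5 fell (25%, beside 11.1%). The median was 0.01, but −0.40 with the filter at a mean of 5 FPKM. CYP1A2, of the zone around the central vein, fell from 596, 589.8 and 586 FPKM to 74.1, whereas RHBG, an ammonium transporter of the same zone, rose from 6.16, 6.91 and 7.65 to 35.0. The others that passed were HAL, TBX3, OAT, ASS1 and GLUL, given above, and RNF43, named after its values were seen (0.882 FPKM, Control mean 3.48).

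Cytoskeletal genes rose in 13 of 33 measured (39.4%, of 37 listed) and fell in 3. S100A11 had 18.5, 19.7 and 13.1 FPKM in Control and 76.8 in hiHepD4, and the tubulins TUBB and TUBB4B rose 4.23-fold and 3.80-fold, to 138 and 131. KRT8 and KRT18, the keratin pair of hepatocytes, were at their highest of the 10 libraries, 1679 and 893 FPKM against Control means of 710.4 and 367, and VIM and MYL9 at their lowest, 37.1 and 14.7 FPKM against Control means of 121 and 44.5. These 4 were named after their values were seen. TPM2, a tropomyosin, fell from 59.8, 60.9 and 58.5 FPKM to 19.1.

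Of 35 measured genes of extracellular matrix and its remodelling (of 36 listed), 7 fell (20%, beside 11.1% of all genes) and 3 rose (8.57%, near 8.16%). Of the 7, 6 were at their lowest of the 10 libraries in hiHepD4. THBS1, thrombospondin 1, had 27.7, 26.6 and 26.9 FPKM in Control and 3.73 in hiHepD4, and POSTN, periostin, had 28.7 to 30.4 and then 8.21. The collagen chains COL6A1, COL6A2 and COL6A3 (11.5, 5.39 and 2.47 FPKM) and CCN2 (7.77) were named after their values were seen. LAMC1, a laminin chain, rose 4.88-fold to 10.7 FPKM. The summed level of the 6 stellate cell markers was 115 FPKM in hiHepD4 and 277 to 317 in Control, most of it ACTA2 in Control. The part of these cells in the matrix values was not tested.

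Few genes in the lists of the basic machinery passed the margin, though more than 46% of each list lay above all 3 Control libraries. These shares were 59.5% (ribosomal proteins), 75% (mitochondrially encoded), 77.4% (proteasome) and 63.9% (respiratory chain), beside 46% of all genes. The median log2 changes were 0.13, 0.15, 0.28 and 0.22, beside 0.03. None of 37 measured ribosomal protein genes (of 45) passed in either direction. The most abundant in Control were below it, with RPS2 at 1968 FPKM against 2788 to 2915 and RPLP1 at 1477 against 2081 to 2083. None of 12 measured mitochondrially encoded genes (of 13) passed either: COX3 had 24957 FPKM against 28945 to 30728 in Control and ATP6 31886 against 25661 to 27934. Of 31 proteasome genes (of 33) 1 rose, PSMD14, to 26.0 FPKM from 7.4 to 9.10, and of 36 nuclear genes of the respiratory chain (of 40) 1 rose, ATP5MC1, to 131 from 54.3 to 72.3, within 2-fold of the nearest Control library.

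**Figure D4:**
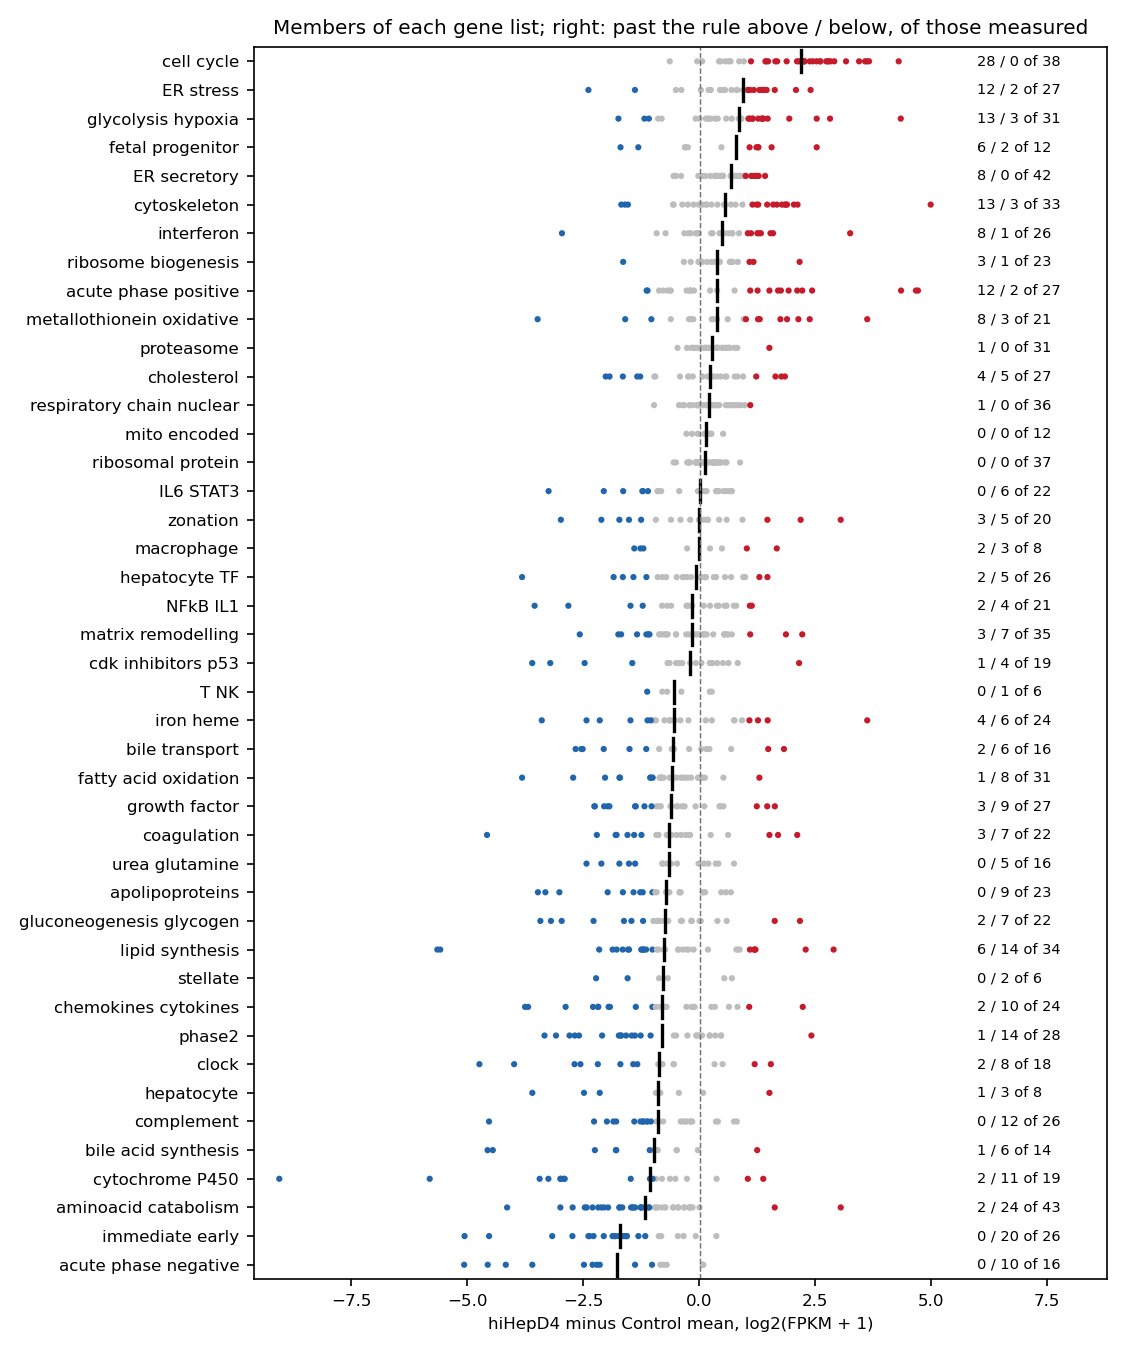
Each point is a measured gene, placed by hiHepD4 minus the Control mean on the log2(FPKM + 1) scale, for lists with at least 5 measured genes; red rose, blue fell, grey passed neither. The black tick is the list's median, the dashed line the median of all genes at 0.03, and the counts at the right give rises, falls and genes measured; the medians run from 2.21 for the cell cycle to −1.76 for negative acute phase genes.

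Markers of the cell types of liver differed in how they stood. Of 3 neutrophil markers measured (of 6), S100A8 and S100A12 rose, and the sum of the 3 was 65.4 FPKM in hiHepD4 against 0.327 to 1.19 in Control. The NoBAL sums were 26.2 and 233, those of EmptyBAL 100.5 and 626, and those of hiHepD8 0.694 and 0.970. S100A12 itself was at 0, 0.727 and 0 FPKM in Control and at 38.8 in hiHepD4. The part of neutrophils in the rises of S100A8 and LCN2 was not tested. Macrophage markers, 8 of 9 measured, summed to 219 FPKM against 405 to 438 in Control. Within that list the scavenger receptors MARCO and CD163 rose, to 20.4 and 26.9 FPKM from Control means of 5.70 and 12.6, and the complement chains C1QA, C1QB and C1QC fell, to 23.5, 54.3 and 73.0 from Control means of 55.4, 145 and 177. CD163 was named after its values were seen.

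Of 6 stellate cell markers, ACTA2 and PDGFRB fell, both to their lowest of the 10 libraries. ACTA2, smooth muscle actin, had 218, 238 and 201 FPKM in Control and 46.1 in hiHepD4, and PDGFRB had 34.7 to 36.5 and then 11.6. ACTA2 alone made up most of the Control sum of this list. COL1A1 and LUM, named after their values were seen, lay above all Control libraries without passing the margin, at 50.2 and 0.946 FPKM against 29.6 to 31.3 and 0.277 to 0.411. Endothelial markers (4 of 5 measured) summed to 39.0 FPKM against 40.5 to 41.6, with PECAM1 at 17.9 against 17.9 to 19.4 and LYVE1 at 11.5 against 12.2 to 12.5. The other measured members, named after their values were seen, moved apart. CDH5 had 5.74 FPKM against 8.64 to 8.77, its lowest of the 10 libraries. VWF had 3.85 against 1.31 to 1.62, which is 2.55-fold in FPKM but 0.95 on the log2(FPKM + 1) scale. Cholangiocyte markers (4 of 5) summed to 16.3 against 12.1 to 13.1, among them KRT7 (10.3 FPKM) and EPCAM (3.43). B and plasma cell markers (3 of 5) summed to 32.5 against 32.1 to 36.3, with CD79A at 24.6 and JCHAIN at 7.75. None of these last 3 lists had a member past the margin.

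T and NK cell markers (6 of 7 measured) summed to 15.6 FPKM against 19.2 to 24.4, and CD247, a chain of the T cell receptor, fell to 2.74 from 5.96 to 7.99, within 2-fold of the nearest Control library on the log2 scale. The red cell genes HBB and ALAS2 had 289 and 2.30 FPKM against 153 to 180.0 and 1.27 to 1.68. The platelet chemokine PPBP was listed at 0 in Control and at 1.72 FPKM in hiHepD4. Among hepatocyte markers, all 8 measured, TTR, ALB and TF fell and FGB rose.

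In 295 genes (2.42%) that rose, hiHepD4 was also the highest of all 10 libraries, and in 270 (2.22%) that fell it was the lowest. With 1 library at that time, such an extreme describes this library and was not tested; without the EmptyBAL libraries, of which the first stood apart, the counts were 362 and 357. By margin over the next library, among genes with a symbol and at least 10 FPKM, CA12, a carbonic anhydrase of the cell surface, came first, with 0.0659 to 0.0812 FPKM in Control, at most 1.18 in any other library and 15.7 in hiHepD4. It was followed by the row HPS5, SFI1 and CCL11, given above. ARRDC4, an arrestin-like adaptor, had 7.48, 6.55 and 7.37 FPKM in Control and 44.1 in hiHepD4, and KLHL5, a kelch protein, had 2.35 to 2.71 and then 25.8. MAGED1 rose 7.48-fold, from 23.5, 23.0 and 23.4 FPKM to 174, with 39.6 the most elsewhere. CBR2, RHBG and PLIN5 completed the group.

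Among the lowest, FBLN5, a protein of elastic fibres, had 14.7, 14.1 and 15.3 FPKM in Control, at least 9.31 in every other library and 1.73 in hiHepD4. The row RNaseP_nuc, a small RNA that processes transfer RNA, was listed at 0 in hiHepD4 and at 14.1, 7.32 and 16.0 in Control; values of such short genes are uncertain in FPKM. ACTA2, SYVN1 and TPM2 were the other 3.

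**Figure D5:**
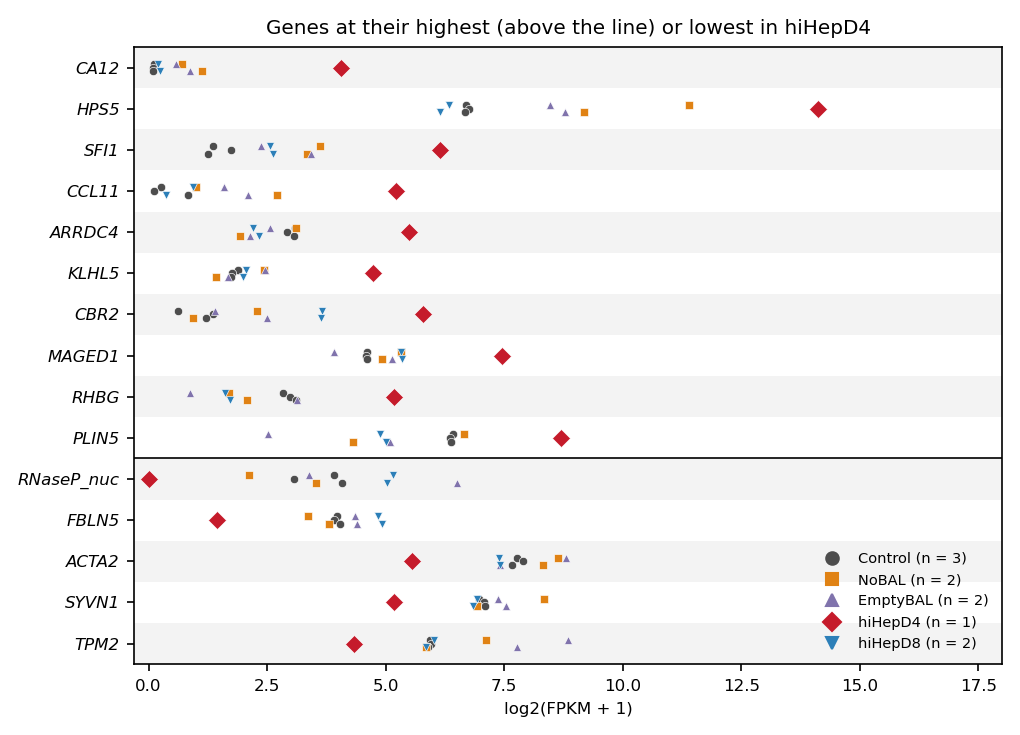
Log2(FPKM + 1) on the x axis of the 10 genes with the largest margin of hiHepD4 over the next library (above the line) and the 5 with the largest margin below it, with each library as a symbol by group (Control n = 3, NoBAL, EmptyBAL and hiHepD8 n = 2 each, hiHepD4 n = 1). The red diamonds of hiHepD4 stand apart on 1 side of all 9 others in each row, from 15.7 FPKM for CA12 to 0 for RNaseP_nuc.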

How the data were processed

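RNA of pig liver was measured in 10 libraries; this comparison rests on hiHepD4 (1 library) and Control (3). Trizol was used to take total RNA, and TruSeq libraries were sequenced from both ends on an Illumina HiSeq, per the labels' protocols. The authors deposited 1 table whose values were taken as FPKM; its columns do not name the unit, and per the submitters' processing notes HISAT2, Cufflinks and HTSeq were used, with the builds Sscrofa11.1 and mm10 and no role for each. FPKM are scaled within a library, so a rise of abundant genes lowers the others. The sources used here give neither depth nor strandedness, and no counting intervals are printed. All 10 columns matched a sample; 0 did not.

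Genes with at least 1 FPKM in 2 libraries entered. Values were compared as log2(FPKM + 1), a pseudocount of 1. Calls needed hiHepD4 outside all 3 Control libraries and 2-fold from their mean; the call rule was tested on simulated data. Of the genes compared, 10938 had a symbol, 10358 of them in the table itself and 580 found by identifier in a reference table; coordinates are RefSeq's for Sscrofa11.1, matched by symbol. Where a symbol had several rows, the most abundant was used. The 49 gene lists hold 1121 symbols, of which 996 had a row and 962 passed the filter.

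Genes were named by rule: the 15 largest rises and 15 largest falls with a symbol and at least 10 FPKM in the higher of hiHepD4 and the Control mean; the 10 genes highest and 5 lowest in hiHepD4 of all 10 libraries, by margin and with the same limits; from each list up to 4 called members, or up to 2 of the most abundant where none was called; and every positive acute phase gene. Some genes that the rule names or that the lists count are not reported here. The comparison, its members and the lists were chosen with earlier results of these data known. Alternatives were pseudocounts of 0.1 and 0.5, filters, 3 scalings, a 4-fold margin, the nearest Control library and leaving out each Control library. Work was done in Python 3.11.15 with numpy 2.4.6, pandas 2.3.3 and, for plots, matplotlib 3.10.9.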

Additional observations from a re-analysis of the deposited data

Results flagged for a closer look

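For 18 of the named genes, hiHepD4 lay at least 2-fold to one side of Control and both hiHepD8 libraries at least 2-fold to the other, on the log2(FPKM + 1) scale. Both comparisons use the same 3 Control libraries, day 4 has 1 library, and the difference between the days was not tested. The 18 were counted on FPKM as deposited and were not recounted under the scalings. Upper-quartile scaling factors were 0.909 and 0.912 on day 8 and 1.05 to 1.07 in Control. Median-of-ratios factors were alike, at 1.003 and 1.005 on day 8 and 0.993 to 1.007 in Control. Genes near the 2-fold limit on day 8, such as MANF, CRP and FGB, may therefore not pass it under every scaling. The first number for each gene below is the log2 change from Control on day 4, and the next ones are those of both day 8 libraries.

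Among acute phase genes, CRP stood at 2.44 on day 4 and at −1.13 and −1.10 on day 8. LBP stood at 1.93, then −3.72 and −3.79. The fibrinogen chains stood at 1.52, then −1.11 and −1.11 (FGB), and at 1.71, then −1.22 and −1.24 (FGG). SERPINA3-2 stood at 1.26, then −1.87 and −1.93. Of the defence genes, SOD2 stood at 2.14, then −2.23 and −2.06, ISG15 at 1.54, then −1.16 and −1.30, and the macrophage receptor MARCO at 1.68, then −1.43 and −1.73.

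In the endoplasmic reticulum list, MANF stood at 2.09, then −1.0 and −1.11, and DNAJB11 at 1.63, then −1.14 and −1.14. The lipid droplet proteins stood at 2.90, then −2.01 and −2.18 (PLIN2), and at 2.30, then −1.51 and −1.39 (PLIN5). The cholesterol enzymes stood at 1.85, then −1.95 and −1.79 (FDPS), and at 1.78, then −2.13 and −2.04 (HMGCS1). The ammonium transporter RHBG stood at 2.19, then −1.37 and −1.25.

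The remaining genes of the 18 were below Control on day 4 and above it on day 8. Named genes were chosen mostly by their day 4 change, and genes outside them were not counted. The number in each direction therefore describes only the named genes. POSTN stood at −1.74, then 1.57 and 1.55, CFD at −2.26, then 1.20 and 1.20, and the row RNaseP_nuc, listed at 0 on day 4, at −3.68, then 1.47 and 1.34.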

How the results depend on the processing

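No paired analysis was possible because hiHepD4 is a single library and the comparison has no test. The 994 rises became 1562 with a pseudocount of 0.1, 658 with a filter at a mean of 5 FPKM and 217 at 4-fold. The 1352 falls became 1985 with that pseudocount, 970 with that filter and 335 at 4-fold. The 295 genes highest of all 10 libraries became 187 with that filter, 164 with libraries scaled to the same sum without mitochondrially encoded genes and 74 at 4-fold. The 270 lowest became 523 with a pseudocount of 0.1, 168 with the filter and 64 at 4-fold. Leaving out each Control library in turn gave 997 to 1011 rises, 1343 to 1373 falls, 298 to 300 highest and 277 to 278 lowest. The EmptyBAL libraries, of which 1 stood apart, were left out as a check chosen after seeing the data, which gave 362 highest and 357 lowest. None of 1927 values of the 176 called named genes under 11 alternatives changed sign. That result is no check of the calls, because these genes were called for lying outside all Control libraries. Such a gene keeps its sign by construction under every alternative except the scalings. The scaling factors of hiHepD4 and Control differed too little to reverse a 2-fold change. Measured from the nearest Control library instead of the mean, 171 of the 176 kept their call; IL11 (−0.78), GAR1 (0.87), BOP1 (0.98), ATP5MC1 (0.85) and CD247 (−0.90) did not. GAR1 also lost it, at 0.997, without Control replicate 1. The median changed sign for 6 of 49 lists. Macrophage markers, interleukin 6 and STAT3, and hepatocyte factors had medians near 0. With the filter at 5 FPKM, zonation went from 0.01 to −0.40. With that filter T and NK markers went from −0.53 to 0.25 and platelet markers from 0.31 to −0.82. The depth of the libraries is unknown, so values at or near 0 FPKM carry an error that could not be given.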
